A study of Bos taurus with 8 samples.

Results

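The genes described here are 10 immediate early genes of the AP-1 and EGR groups, FOS, FOSB, FOSL2, JUN, JUNB, JUND, ATF3, EGR1, EGR2 and IER2. They were found by name, from a list drawn up with earlier results of these data known, and all 10 were among the 21861 genes listed in the single-cell RNA sequencing (scRNA-seq) tables of cattle blood cells. Their Ensembl identifiers there were ENSBTAG00000004322 (FOS), ENSBTAG00000008182 (FOSB), ENSBTAG00000023929 (FOSL2), ENSBTAG00000004037 (JUN), ENSBTAG00000012046 (JUNB), ENSBTAG00000052791 (JUND), ENSBTAG00000008545 (ATF3), ENSBTAG00000010069 (EGR1), ENSBTAG00000046409 (EGR2) and ENSBTAG00000016354 (IER2). Immediate early genes are transcribed within minutes of a stimulus without new protein synthesis, and their transcripts are short-lived. AP-1 is a dimer of proteins of the FOS, JUN and ATF families that binds DNA through a basic leucine zipper (bZIP), while EGR proteins bind through zinc fingers. In blood monocytes, lipopolysaccharide (LPS) of Gram-negative bacteria activates MAP kinases through TLR4 and CD14, and AP-1 and EGR proteins lie downstream of these kinases.

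Peripheral blood mononuclear cells (PBMCs) came from blood of 4 lactating Holstein females aged 2 years. The blood was mixed into 1 pool and divided into a part with no LPS and 3 parts with 2 µg/ml LPS at 37 °C for 2 h, 4 h or 8 h, and PBMCs were isolated afterwards by centrifugation. Each part gave 1 scRNA-seq library and 1 library of the single-cell assay for transposase-accessible chromatin (scATAC-seq). There were no replicates, no test between treatments was possible, and a library and its treatment cannot be told apart. No incubation time was given for the part without LPS, so LPS and time in culture cannot be told apart either. All intervals are exact 95% intervals and cover counting error only.

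The scRNA-seq libraries held 3860 to 10429 barcodes, and the stated limits on cells (200 to 3000 genes, no fewer than 200 UMIs, and mitochondrial UMIs below 20%) left 7821 cells with no LPS and 9865, 7387 and 3411 cells with LPS for 2 h, 4 h and 8 h. A UMI (unique molecular identifier) counts 1 transcript molecule at its 3' end, so levels were not divided by gene length. The cells kept held 16657841 to 47875879 UMIs per library, with medians of 3997 to 4757 per cell. Pairs of scRNA-seq libraries shared 8 to 24 barcodes. In scATAC-seq the no LPS and 2 h libraries shared 228 barcodes and the other pairs 10 to 31. Levels are given as CPM, UMIs per 1000000 UMIs of the cells summed, in the order no LPS, 2 h, 4 h and 8 h. Differences are log2 ratios to no LPS with 1 CPM added to both levels, and folds are plain ratios of CPM. A gene was tested for passing 2-fold, on the log2 scale, where it had at least 20 UMIs over both libraries.

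Over all cells kept, ATF3 was higher at 2 h, EGR1 and FOS were lower at each time, and JUNB was higher at 2 h. In cells with CD14 UMIs, where most of these genes had their highest levels without LPS, ATF3 was 3.87-fold higher at 2 h and FOS 4.04-fold lower. In cells with MS4A1 UMIs, ATF3 was 3.97-fold higher at 2 h over summed UMIs, a log2 ratio of 1.90 that became 0.74 with every cell weighted equally.

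Among the FOS family, FOS, the founding partner of JUN in AP-1, had 25.5 CPM without LPS and 14.75, 12.45 and 20.8 with LPS (983, 706, 500 and 347 UMIs). It was lowest at 4 h, 2.05-fold below no LPS (ratio 0.488, interval 0.437 to 0.544), just short of 2-fold on the log2 scale at -0.98. FOSB, a close relative of FOS, was near the limit of detection in every library, with 1.14, 0.815, 1.52 and 2.46 CPM (44, 39, 61 and 41 UMIs). At 8 h its level was 2.15-fold that without LPS (interval 1.37 to 3.37), and with 1 CPM added the log2 ratio was 0.69. FOSL2, the Fos-related antigen 2, had 17.7, 23.0, 19.05 and 15.1 CPM, with the 2 h library highest and log2 ratios of 0.36, 0.10 and -0.22.

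The JUN family was the most abundant. JUN, which pairs with FOS proteins or with itself, had 409.5 CPM without LPS and 272.7, 253.0 and 320.0 with LPS, so all 3 LPS libraries lay below no LPS (by -0.58, -0.69 and -0.35 on the log2 scale). JUNB, a JUN relative that also pairs with FOS proteins and with BATF, had 347.6, 533.7, 373.9 and 332.6 CPM. The 2 h library stood above the other three, 1.54-fold above no LPS (1.504 to 1.568). JUND, the JUN protein found in most resting cells, followed with 512.4, 666.9, 519.5 and 555.2 CPM, 1.30-fold higher at 2 h.

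ATF3, a stress-induced bZIP factor that dampens cytokine transcription in macrophages, had 45.2 CPM without LPS and 104.1, 47.9 and 46.9 with LPS. The 2 h library was 2.30-fold above no LPS (2.18 to 2.435), while the log2 ratios at 4 h and 8 h were 0.08 and 0.05. EGR1, a zinc finger factor of the serum response, moved the other way with 48.8, 25.3, 20.3 and 28.8 CPM. It was 1.93-fold, 2.40-fold (ratio 0.417, 0.3835 to 0.4528) and 1.69-fold lower at 2 h, 4 h and 8 h. EGR2 had only 9, 6, 3 and 2 UMIs, too few to compare. IER2, a small nuclear protein of the immediate early response, varied least relative to no LPS among the abundant members, with 152.1, 163.3, 142.9 and 130.9 CPM.

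**Figure D1:**
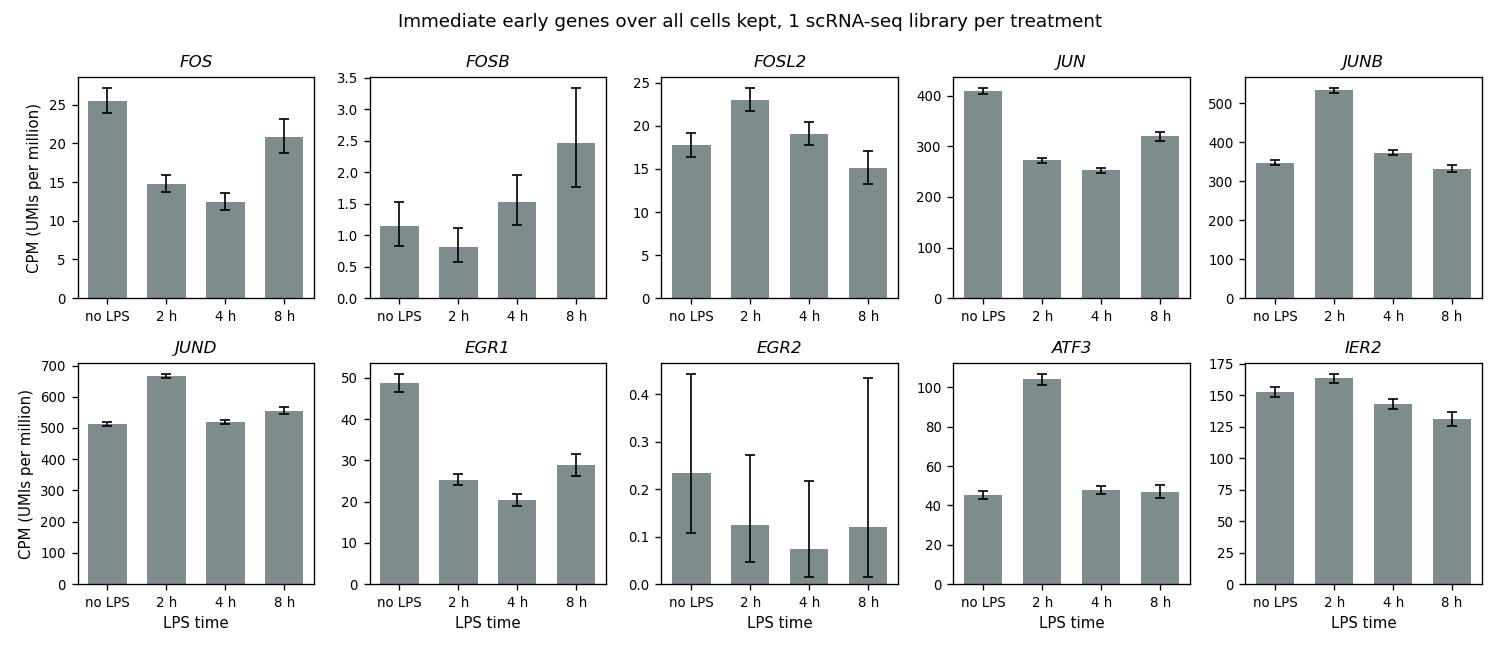
Level of each of the 10 genes in CPM over all cells kept of the 4 scRNA-seq libraries, with exact 95% Poisson intervals as bars. ATF3 stands at 104.1 CPM in the 2 h library against 45.2 to 47.9 in the others, and EGR1 is highest without LPS at 48.8.

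Of the 9 members tested at 2 h, 1 was at least 2-fold higher (ATF3) and 0 at least 2-fold lower, where 0.938% of all 12150 genes tested were higher and 2.46% lower. At 4 h 0 members were higher and 1, EGR1, was lower, against 1.28% and 4.26% of all genes. At 8 h 0 members passed in either direction, against 0.492% and 2.92% of all genes. The members' median log2 ratio was 0.10, 0.02 and -0.21 at 2 h, 4 h and 8 h, beside -0.03, 0.02 and 0.10 over all genes. Over a mixture of cells, fewer cells of a type and less RNA per cell cannot be told apart. Cells gated on CD14 were 9.04% of the cells without LPS and 3.12%, 1.58% and 1.94% with LPS, and they held 17.5% of the UMIs without LPS and 2.83% to 7.46% with LPS. With the gated classes set to their shares in the no LPS library, the log2 ratios of EGR1 became -0.54, -0.75 and -0.46 and those of ATF3 1.80, 1.25 and 0.87, so EGR1 no longer passed 2-fold at 4 h and ATF3 did. JUN and FOSL2 at 8 h turned to 0.07 and 0.11. With every cell weighted equally EGR1 was at -0.30, -0.18 and -0.07 and FOS at -0.62, -0.50 and 0.00. Of all genes past 2-fold, 27.6%, 23.05% and 14.43% were higher at 2 h, 4 h and 8 h, against 56.7%, 52.1% and 46.0% with the class shares held. With cells weighted equally the shares were 27.8%, 26% and 42.7%. With TMM scaling, DESeq2 size factors or centring on the all-gene median they were 29.3% to 30.4%, 21.5% to 21.7% and 7.64% to 8.03%.

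The limit of 3000 genes also touched these genes. It left out 619, 511, 542 and 419 barcodes, which held 33.6%, 24.9%, 28.8% and 46.1% of the UMIs of their libraries. FOS in those barcodes was 32.6 CPM without LPS and 6.31, 8.92 and 8.16 with LPS, while EGR1 was 64.85 CPM without LPS and 20.9, 11.4 and 24.2 with LPS. ATF3 was 69.3, 166.2, 112.5 and 74.9 CPM there. With no upper limit the log2 ratios of FOS were -1.08, -1.22 and -0.85 and those of EGR1 -1.13, -1.56 and -0.995, so both passed 2-fold at 2 h and 4 h and neither at 8 h.

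To place the genes in cell classes, cells were gated on UMIs of 1 marker and 0 UMIs of the other 3, with at least 2 UMIs of CD14 (a monocyte LPS co-receptor) or at least 1 UMI of CD3E (a T cell receptor chain partner), MS4A1 (the B cell antigen CD20) or NCR1 (the NK cell receptor NKp46). The CD14-gated cells numbered 707, 308, 117 and 66, the CD3E-gated 3482, 4937, 3857 and 1550, the MS4A1-gated 1692, 2392, 1894 and 663, and the NCR1-gated 58, 97, 90 and 38. The remaining 1094 to 2131 cells per library were left ungated. The 10 monocyte markers, CD14 included, summed to 10170 to 15536 CPM in CD14-gated cells, where none of the 10 was at 0, and to 15.4 to 392.8 CPM in the other gated classes. T, B and NK markers summed to 2263 to 2422, 1984 to 2488 and 2136 to 2714 CPM in CD3E-, MS4A1- and NCR1-gated cells. In CD14-gated cells the 8 T cell markers summed to 422.8, 583.0, 784.1 and 840.8 CPM, of which IL7R, the interleukin 7 receptor, made up 411.1, 577.4, 775.3 and 826.6, with 1 to 3 of the 8 at 0. Neutrophil markers there summed to 83.3, 41.8, 106.6 and 37.7 CPM, mostly MMP9 without LPS (74.1 CPM) and mostly CSF3R, the receptor for granulocyte colony-stimulating factor, at 4 h (85.5 CPM). CD163, a monocyte scavenger receptor, was 47.8, 7.85, 3.52 and 12.6 CPM, while all 10 monocyte markers summed to 13757, 10170, 12393 and 15536 CPM. Whether these marker differences come from the make-up of the gate or from levels within its cells was not tested. Their part in the members' ratios was not tested either.

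The CD14-gated cells held 17.5% of all UMIs without LPS and a larger part of those of most members. They held 40.3% of those of FOS, 48.4% of EGR1, 48.5% of FOSL2 and 38.6% of JUN, and 2.6% to 22.2% of each of these with LPS. FOSB (52.3%), JUNB (29.5%) and ATF3 (55.9%) were also above 17.5% without LPS, while JUND (8.30%), IER2 (15.5%) and EGR2 (0%) were below it. FOS in these cells was 58.8 CPM without LPS and 14.6, 11.45 and 31.4 with LPS (396, 52, 13 and 20 UMIs). It was 4.04-fold lower at 2 h (ratio 0.248, 0.182 to 0.331) and 5.135-fold lower at 4 h (ratio 0.195, 0.103 to 0.337), with 8 h between these and no LPS. A few cells carried much of it, since the highest 10% of the CD14-gated cells without LPS held 70.7% of their FOS UMIs and 1 cell had 27. FOSB was 3.42, 3.08, 6.17 and 20.4 CPM on 23, 11, 7 and 13 UMIs, so the 8 h cells were 5.98-fold above no LPS (2.78 to 12.3) on few molecules. FOSL2 was 49.15, 68.4, 63.4 and 40.9 CPM and passed 2-fold at no time.

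JUN reached its highest level of any class in CD14-gated cells, 904.2, 678.3, 796.4 and 1080 CPM, and was 1.33-fold lower at 2 h. JUNB was 586.4, 915.9, 765.6 and 584.6 CPM there, highest at 2 h (1.56-fold, 1.49 to 1.64) and back at the no LPS level at 8 h. JUND, at 243.1, 225.0, 169.1 and 172.9 CPM, was lower in CD14-gated cells than in the other gated classes of the same library. Only JUND among the JUN family had this order.

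ATF3 was 144.3, 558.9, 400.0 and 275.0 CPM in CD14-gated cells (972, 1995, 454 and 175 UMIs). It was 3.87-fold (3.585 to 4.185), 2.77-fold (2.47 to 3.101) and 1.905-fold (1.61 to 2.24) above no LPS, so the difference was largest at 2 h and smaller at each later time. The median CD14-gated cell had 0, 5, 3 and 1 UMIs of ATF3 and 4, 9, 7 and 4 of JUNB. EGR1 was 135.1, 75.4, 50.2 and 53.4 CPM, 1.79-fold, 2.69-fold and 2.53-fold lower. IER2 was 134.4, 88.5, 75.8 and 77.0 CPM, with all 3 LPS libraries lower by 0.60 to 0.82 on the log2 scale, and EGR2 had 1 UMI in all.

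**Figure D2:**
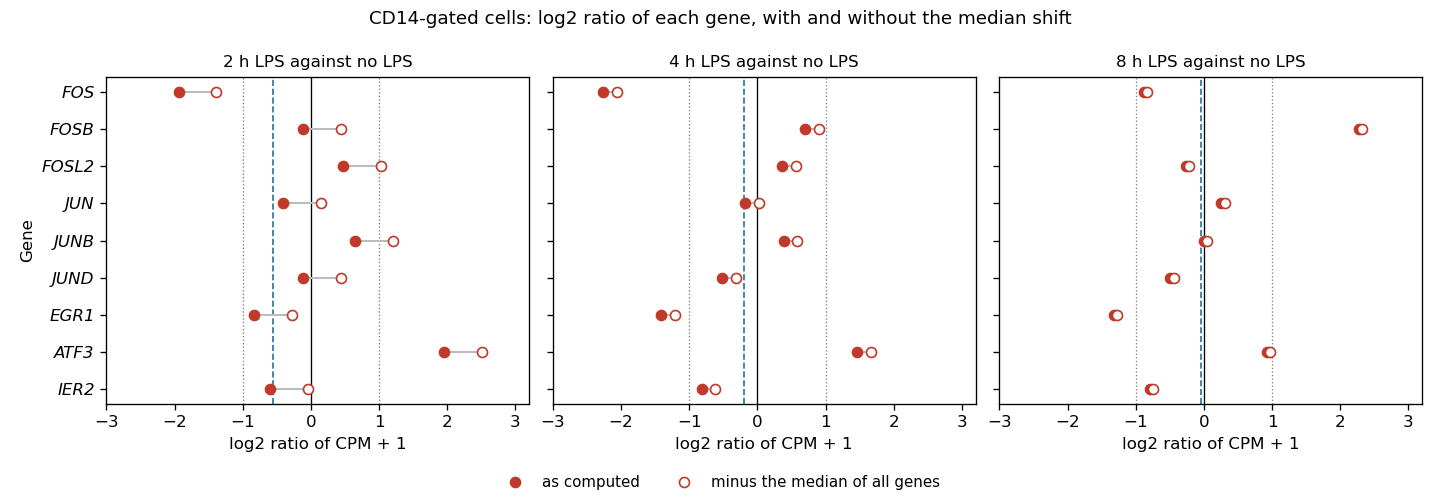
Log2 ratio to no LPS of each tested gene in CD14-gated cells at 2 h, 4 h and 8 h (1 CPM added), beside the median of all genes tested. ATF3 is the highest gene at 2 h (1.95), FOSB the highest at 8 h (2.28, on 13 and 23 UMIs) and FOS the lowest at 4 h (-2.26).

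In CD14-gated cells 2 of the 9 members tested passed 2-fold at 2 h (ATF3 higher, FOS lower), 3 at 4 h (ATF3 higher, FOS and EGR1 lower) and 2 at 8 h (FOSB higher, EGR1 lower). Of all genes tested, 25.5%, 18.6% and 13.8% passed in either direction, and with 9 members nothing particular to them is read from these counts. The median of all genes in these cells was itself shifted, by -0.56, -0.20 and -0.05 on the log2 scale. The 10 most abundant genes held 35.5%, 32.0% and 31.0% of the UMIs at 2 h, 4 h and 8 h, against 30.1% without LPS. Of the genes past 2-fold at 2 h, 16.5% were higher, and 60.8% after centring on the median, with 30.1% and 48.6% at 4 h. Relative to that median at 2 h, ATF3 was higher by 2.50, JUNB by 1.199 and FOSL2 by 1.03, FOS was at -1.39, EGR1 at -0.28 and IER2 at -0.04. JUN turned from -0.41 to 0.14, JUND from -0.11 to 0.45 and FOSB from -0.11 to 0.44.

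The direction of EGR1 and IER2 in CD14-gated cells depended on which cells counted most. With every cell weighted equally the log2 ratio of EGR1 at 2 h was 0.36 and at 4 h -0.10, against -0.83 and -1.41 over summed UMIs, and IER2 at 2 h was 0.12 against -0.60. FOS at 2 h was still below 0 at -1.58 and ATF3 above 0 at 2.45. With CSF1R, the receptor for macrophage colony-stimulating factor, as the monocyte gate marker (267, 62, 25 and 19 cells), FOS was at -3.30, -4.13 and -2.33, ATF3 at 1.56, 1.25 and 0.41, and JUNB turned to -0.45 at 4 h. FOSB at 8 h was 1.36 with no upper limit on genes, against 2.28. Above that limit lay 10.8%, 9.94%, 11.4% and 25.8% of the cells otherwise passing the CD14 gate.

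Shares of CD14-gated cells with a UMI were compared after each cell was thinned to 1000 UMIs, which kept 672, 300, 106 and 57 cells and left out 35, 8, 11 and 9 shallower ones. ATF3 was seen in 12.35% of cells without LPS (interval 9.96% to 15.1%). With LPS the share was 43.3% at 2 h (37.65% to 49.15%), 35.85% (26.8% to 45.7%) at 4 h, and 21.05% (11.4% to 33.9%) at 8 h. Unthinned, the shares were 45.5%, 91.9%, 77.8% and 54.55%. The 2 h interval lay above that without LPS, and the 8 h interval overlapped it.

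Thinned shares for JUNB were 39.1%, 59.7%, 60.4% and 35.1% (81.2%, 97.7%, 95.7% and 74.2% unthinned), with the same order of high and low libraries as its levels at 2 h and 4 h against the rest. FOS was seen in 5.36%, 2.00%, 1.89% and 8.77% (24.75%, 13.6%, 9.40% and 13.6% unthinned). EGR1 was seen in 10.7%, 10.7%, 8.49% and 5.26% of thinned cells (44.98%, 35.4%, 24.8% and 22.7% unthinned), so its share was the same without LPS and at 2 h while its level was lower at 2 h. EGR2 was seen in none of the thinned cells, where 3 cells would be 0.446%, 1.00%, 2.83% and 5.26%. This limits cells with an EGR2 UMI at this depth, not cells expressing the gene, and unthinned 0.325% of the 2 h cells had one.

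Every pair of members was counted per cell in every library, and only EGR1 with ATF3 or JUNB is given here, without 4 h and 8 h. At 2 h ATF3 was seen more often in cells with EGR1 than in all cells. Of the 32 thinned CD14-gated cells with EGR1 at 2 h, 22 (68.75%) also had ATF3, against 43.3% of all, and 81.25% had JUNB, against 59.7%. Without LPS 10 of 72 cells with EGR1 had ATF3 (13.9%), near the 12.35% of all. The cells of a library share its depth and free RNA, and no test was made over them.

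**Figure D3:**
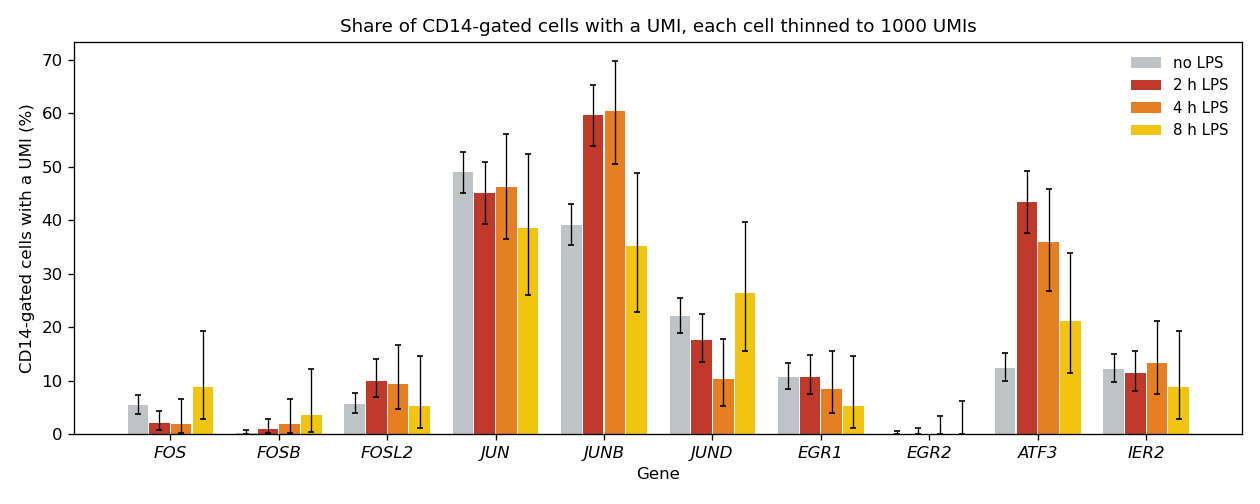
Percent of CD14-gated cells with at least 1 UMI of each gene after thinning to 1000 UMIs per cell, for the 4 scRNA-seq libraries, with exact 95% binomial intervals as bars. ATF3 goes from 12.35% without LPS to 43.3% at 2 h.

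CD3E-gated cells had much JUND, JUN and JUNB and little of the other AP-1 members. JUND was 643, 693.8, 583.4 and 652.2 CPM, which was 264.5% to 377.3% of its level in CD14-gated cells. JUNB was 262.5, 471.9, 340.1 and 282.8 CPM, 1.80-fold higher at 2 h (1.73 to 1.865), with the level lower at each later time. FOSL2 was 10.2, 21.6, 19.6 and 14.1 CPM (156, 471, 385 and 117 UMIs) and 2.11-fold higher at 2 h (1.76 to 2.55). That log2 ratio of 1.01 was the only one of the 8 members tested past 2-fold at 2 h, where 0.905% of all genes passed. At 4 h and 8 h 0 members passed, against 1.79% and 1.19% of all genes. With at least 2 CD3E UMIs asked for, FOSL2 at 2 h was 0.91, with no upper limit on genes 0.98, with 10 CPM added 0.64 and with CD3D as the marker 0.64.

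JUN in CD3E-gated cells was 342.5, 291.0, 287.1 and 344.9 CPM, slightly lower at 2 h and 4 h. FOS was 9.325, 11.15, 9.665 and 13.6 CPM, and at 8 h it was 1.46-fold above no LPS (1.13 to 1.88). IER2 was 139.7, 164.1, 143.1 and 126.9 CPM. FOSB had 6 to 8 UMIs per library and EGR2 0 or 1.

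Free RNA of monocytes can enter droplets of other cells, so the members were set beside 9 monocyte markers, as percent of the CD14-gated level of the same library. In CD3E-gated cells the markers had medians of 0.550%, 0.290%, 0.235% and 0.761%, and the highest marker stood at 1.01%, 2.40%, 5.77% and 3.06%, where with LPS it rested on only 2 to 6 UMIs in the CD3E-gated cells. ATF3 there was 7.49, 12.8, 10.2 and 10.1 CPM, or 5.19%, 2.29%, 2.54% and 3.67% of the CD14-gated level, above the marker median in each library and below the highest marker at 2 h and 4 h. The part of free RNA in its level was not tested. EGR1, at 6.63, 4.54, 4.17 and 8.78 CPM, was 4.91%, 6.03%, 8.31% and 16.4%, and its log2 ratio at 4 h turned from -0.56 to 1.24 with cells weighted equally. FOSL2 was far above the range at 20.8%, 31.6%, 30.9% and 34.4%.

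**Figure D4:**
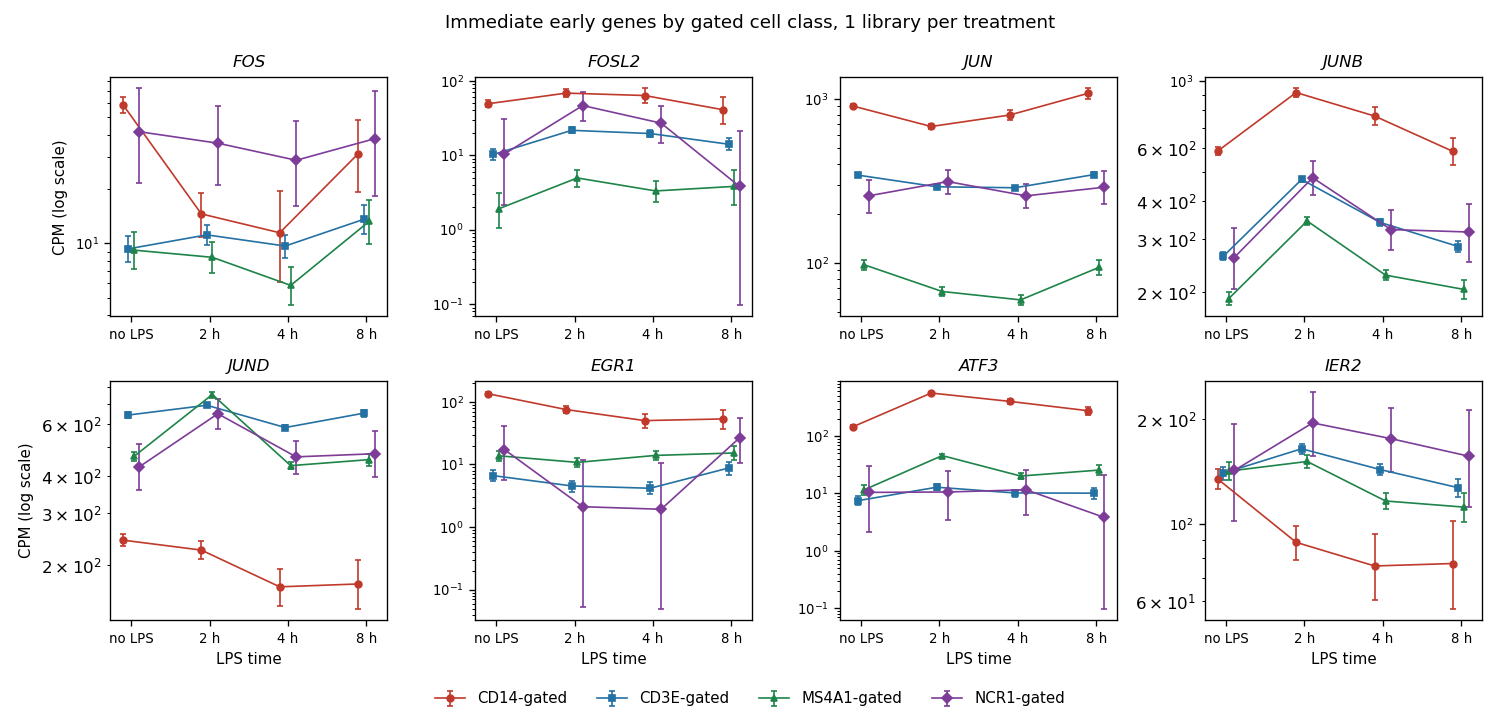
Level of each gene except FOSB and EGR2 in CPM (log axis) in CD14-, CD3E-, MS4A1- and NCR1-gated cells of the 4 scRNA-seq libraries, with exact 95% Poisson intervals as bars. ATF3 and EGR1 are highest in CD14-gated cells, JUND is lowest there, and JUNB is higher at 2 h than without LPS in each of the 4 classes.

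MS4A1-gated cells had their clearest difference in ATF3, at 11.5, 45.5, 20.1 and 25.45 CPM (90, 560, 230 and 100 UMIs). ATF3 was 3.97-fold (3.17 to 5.01), 1.75-fold and 2.22-fold (1.65 to 2.98) above no LPS. Its thinned shares were 0.733%, 3.34%, 1.34% and 2.585% of cells. At 2 h it stood at 8.14% of the CD14-gated level, above the highest of the 9 monocyte markers (5.98%), and at 8 h at 9.26% against 2.03%. The log2 ratio of 0.74 at 2 h with every cell weighted equally was short of 2-fold.

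JUND in these cells was 465.9, 754.1, 433.8 and 454.6 CPM, 1.62-fold higher at 2 h (1.56 to 1.68) and not at 4 h or 8 h. Its thinned shares were 34.45%, 46.7%, 35.2% and 33.6%. JUNB was 190.1, 343.7, 227.4 and 203.9 CPM, 1.81-fold higher at 2 h.

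JUN had its lowest levels of the 4 classes in MS4A1-gated cells, 97.6, 66.9, 59.5 and 93.9 CPM, and was 1.46-fold and 1.64-fold lower at 2 h and 4 h. Monocyte markers summed to 392.8, 45.9, 42.1 and 161.4 CPM in these cells. JUN stood at 10.8%, 9.87%, 7.47% and 8.70% of its CD14-gated level, against 5.26%, 5.98%, 3.40% and 2.03% for the highest marker. The part of monocyte RNA in the JUN ratios was not tested. FOSL2 was also lowest in MS4A1-gated cells without LPS, at 2 h and at 4 h, with 1.91, 4.96, 3.32 and 3.82 CPM (15, 61, 38 and 15 UMIs). Its log2 ratio at 2 h was 1.03, which became 0.94 with no upper limit on genes and 0.33 with 10 CPM added. FOS was 9.175, 8.37, 5.85 and 13.2 CPM and EGR1 13.8, 10.8, 14.0 and 15.3. IER2 was 141.6, 150.9, 116.3 and 111.7 CPM, FOSB had 3 to 11 UMIs and EGR2 none. Past 2-fold were 2 of 8 members tested at 2 h (ATF3 and FOSL2), 0 at 4 h and 1 at 8 h (ATF3), against 4.3%, 7.27% and 3.62% of all genes. The median of all genes at 2 h was -0.12 in these cells, and centring on it moved the share of higher genes among those past 2-fold at 2 h from 59.2% to 77.2%, with 35.15% and 47.4% at 4 h.

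NCR1-gated cells were few, so their values have wide intervals. FOSL2 had 3, 22, 14 and 1 UMIs (10.4, 46.5, 27.0 and 3.81 CPM) and at 2 h was 4.47-fold above no LPS (1.34 to 23.3). JUNB was 260.1, 478.1, 321.9 and 316.0 CPM, 1.84-fold higher at 2 h (1.41 to 2.42). JUND was 430.1, 649.4, 464.5 and 475.9 CPM, again highest at 2 h (1.51-fold). JUN was 256.7, 313.1, 256.3 and 289.3 CPM, FOS 41.6, 36.0, 28.9 and 38.1, and IER2 142.2, 194.6, 175.4 and 156.1, each with intervals of its ratio to no LPS that held 1. EGR1 had 1 to 7 UMIs per library, ATF3 1 to 6, and FOSB and EGR2 none, where 3 UMIs would be 5.78 to 11.4 CPM. Of the members tested, 1 of 6 passed 2-fold at 2 h (FOSL2), 0 of 5 at 4 h and 0 of 5 at 8 h, against 7.53%, 8.75% and 7.65% of all genes.

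Set side by side, JUNB at 2 h was higher in all 4 gated classes, with log2 ratios of 0.64 (CD14), 0.84 (CD3E), 0.85 (MS4A1) and 0.88 (NCR1). JUND at 2 h was 0.69 in MS4A1-gated, 0.59 in NCR1-gated, 0.11 in CD3E-gated and -0.11 in CD14-gated cells. The median of all genes at 2 h was -0.56 in CD14-gated cells and -0.12 to 0.01 in the other gated classes. Relative to that median, JUNB was highest in CD14-gated cells at 1.199, against 0.86 (CD3E), 0.97 (MS4A1) and 0.87 (NCR1). JUND was then above 0 in CD14-gated cells at 0.45, against 0.81 (MS4A1), 0.58 (NCR1) and 0.12 (CD3E). The order of the classes thus depended on centring. These classes come from the same libraries, and the differences between classes were not tested. In ungated cells, with medians of 1710 to 4248 UMIs, ATF3 was 66.6, 220.2, 140.0 and 119.8 CPM, JUNB 460.3, 774.5, 634.6 and 550.2, EGR1 89.8, 73.0, 70.0 and 87.1, and FOS 42.95, 29.9, 29.1 and 43.3. Ungated cells held 18.4% to 21.8% of all UMIs. They held 40.2%, 58.6%, 63.3% and 63.75% of those of EGR1 and 32.2%, 43.0%, 53.7% and 53.9% of those of ATF3. At 4 h and 8 h their EGR1 level was above that of CD14-gated cells (50.2 and 53.4 CPM).

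Other genes of the same pathways were counted over all cells kept, for lists whose members were tested where they had at least 20 UMIs. The shares of all genes past 2-fold, to be read beside these counts, were 0.938%, 1.28% and 0.492% for higher genes and 2.46%, 4.26% and 2.92% for lower genes, and the medians of all genes were -0.03, 0.02 and 0.10. Among other AP-1 and bZIP genes, 1 of 23 was at least 2-fold higher and 1 lower at 2 h, 1 of 22 higher and 2 lower at 4 h, and 0 of 22 higher and 2 lower at 8 h, with medians of 0.01, -0.04 and -0.06. BATF, a partner of JUN proteins in lymphocytes, was 106.8 CPM without LPS, 343.5 at 2 h (1.68 on the log2 scale) and 334.4 at 4 h (1.64). CEBPD, a bZIP factor of myeloid cells, was 559.8 CPM without LPS, 176.2 at 4 h (-1.66) and 193.0 at 8 h (-1.53).

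Of 9 tested genes of the other EGR, NAB and SRF/ELK group, which holds relatives, partners and upstream factors of EGR1, 0 passed at any time, with medians of -0.01, -0.04 and 0.17. All 21 genes of the MAP kinase pathway to AP-1 stayed within 2-fold, with medians of -0.05, -0.12 and -0.00. Among other immediate early genes 4 of 30 were higher and 2 lower at 2 h, 3 higher and 2 lower at 4 h, and 1 higher and 0 lower at 8 h, with medians of 0.19, 0.00 and 0.02. CD69, an early activation antigen of lymphocytes, was 23.9, 190.1, 107.4 and 64.2 CPM, a log2 ratio of 2.94, 2.12 and 1.39. DUSP1, a phosphatase that switches off MAP kinases, was 262.9 CPM without LPS and 74.95 at 4 h (-1.80), and IER5L, a relative of IER2, 39.7 without LPS and 18.1 at 2 h (-1.09).

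Heat shock genes, which also respond to handling, had 0 of 12 past 2-fold at 2 h and 8 h and 1 lower at 4 h (HSPB1, a small heat shock protein, from 120.8 to 49.5 CPM), with medians of 0.16, 0.27 and 0.07. Textbook targets of AP-1 or EGR factors in blood cells had 7 of 20 higher and 5 lower at 2 h, 1 higher and 8 lower at 4 h, and 0 higher and 6 lower at 8 h, with medians of 0.77, -0.54 and -0.45 beside -0.03, 0.02 and 0.10 over all genes. PTGS2, the inducible cyclooxygenase, was 47.9 CPM without LPS and 279.3 at 2 h, and CD83, an activation marker, 99.5 without LPS and 291.3 at 4 h. The monocyte chemokine CCL2 was 7539 CPM without LPS and 374.7 at 4 h, MMP9, a matrix protease, 17.6 without LPS and 0.773 at 2 h, and SPP1, osteopontin, 57.7 without LPS and 1.26 at 8 h. CD14-gated cells were fewer at each time with LPS, as given above, and their part in these counts was not tested.

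Likeness to other genes was measured as Pearson's r of log2(CPM + 1) over 16 sums, 4 libraries by 4 gated classes, which share libraries and cell classes, so it is a description. The genes most like ATF3 were F3 (r = 0.980), ICAM1 (0.980) and NLRP12 (0.978), and those most like JUN were FXYD5 (0.984), S100A11 (0.977) and RBMS1 (0.975). JUNB was most like NLRP3 (0.928), TNF (0.926) and PRDM1 (0.922). FOSL2 was most like PRDX6 (0.952), TACC3 (0.9475) and OPTN (0.935), and JUND most like FAHD2A (0.962), JMY (0.949) and ZFX (0.945). For FOS they were ENSBTAG00000012026 (0.956), ADAMTSL4 (0.903) and TNFSF12 (0.895), for EGR1 MBOAT7 (0.944) and 2 genes listed without a symbol, and for IER2 RACGAP1, PLEKHA3 and BRCA1 (each 0.903). FOSB and EGR2 had under 200 UMIs over the 16 sums and were not compared.

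In scATAC-seq, the counts per gene measure transposase cuts assigned to that gene in open chromatin, and the rule of assignment was not given in the sources used here. The no LPS library was far shallower than the others, with 975012 counts in 3121 barcodes (median 213) against 30250143, 26837579 and 11957904 counts in 4172, 3231 and 3163 barcodes (medians 5171, 5205 and 2250). Of the values above 0, 88.7% to 93.8% were even numbers, so most counts come in pairs and intervals that treat each as independent would be too narrow. The scATAC-seq intervals given here were therefore computed with the counts divided by 2. The 228 barcodes shared by the no LPS and 2 h libraries held 5.77% of the counts without LPS and 18.1% of those at 2 h. JUNB had no row in the 2 h and 4 h tables used here, which left 9 members to compare at those times.

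EGR2 and FOSB, the members with the fewest UMIs in scRNA-seq, were not the lowest in these counts. EGR2, with 20 UMIs over all cells kept in scRNA-seq, had 189.7, 178.6, 199.7 and 239.8 CPM and a count in 2.95%, 38.0%, 40.5% and 27.3% of barcodes. FOSB had 248.2, 219.5, 224.6 and 276.6 CPM. FOS was among the lowest members with 135.4, 153.9, 161.8 and 176.5.

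FOSL2 was the member that differed most from no LPS in summed counts, with 115.9 CPM without LPS and 238.0, 240.6 and 210.5 with LPS (113, 7199, 6458 and 2517 counts). It was 2.05-fold (1.58 to 2.72), 2.08-fold (1.60 to 2.75) and 1.82-fold higher. JUN was 331.3, 340.8, 357.1 and 424.2 CPM, JUND 348.7, 315.8, 321.4 and 397.3, and JUNB 402.0 without LPS and 443.5 at 8 h.

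ATF3 was nearly level at 136.4, 140.5, 148.7 and 141.7 CPM, with a ratio at 2 h of 1.03, while its RNA over all cells at 2 h was 2.30-fold that without LPS. EGR1 was 324.1, 249.9, 265.2 and 276.5 CPM. IER2 was 428.7, 275.1, 291.2 and 339.7 CPM, 0.64 times the no LPS level at 2 h (0.558 to 0.741).

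**Figure D5:**
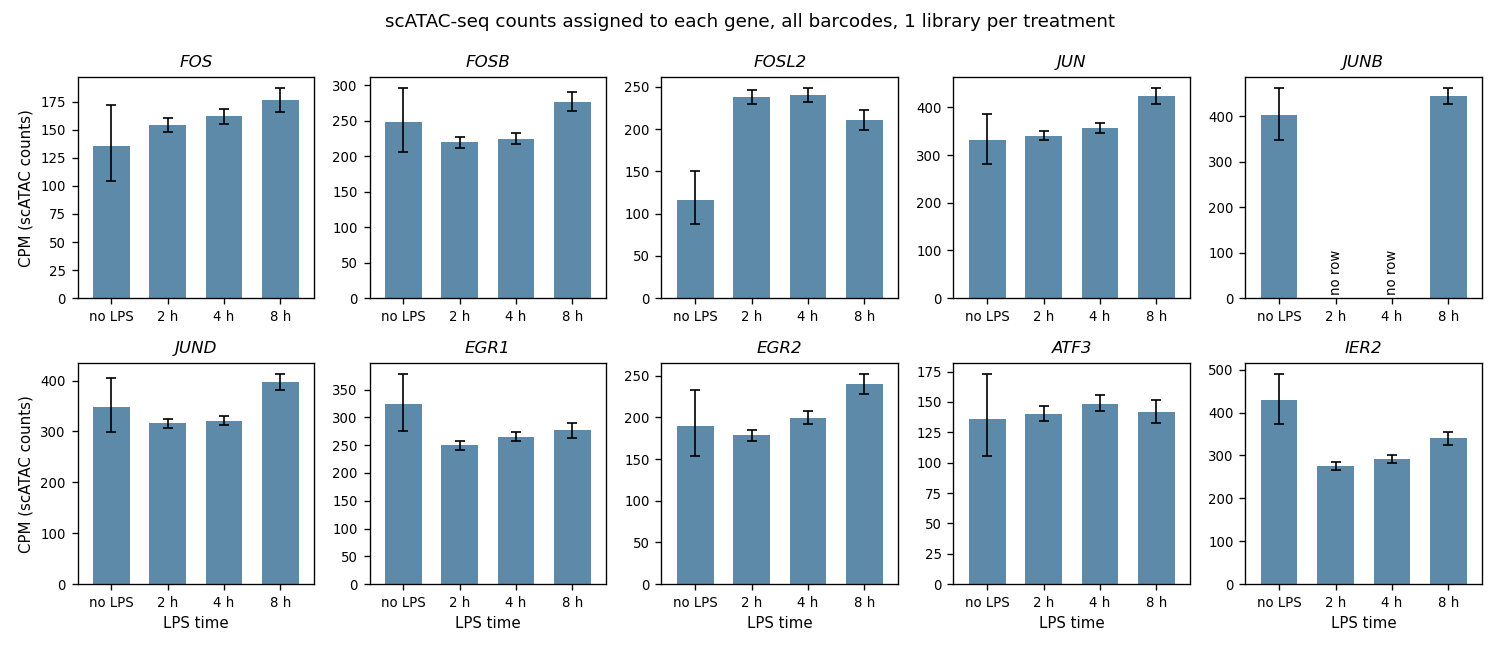
scATAC-seq counts of each gene in CPM for the 4 libraries, with exact 95% Poisson intervals of the counts taken in pairs as bars. FOSL2 stands at 115.9 CPM without LPS and 210.5 to 240.6 with LPS, IER2 is highest without LPS, and JUNB has values only without LPS and at 8 h.

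Of the members tested in scATAC-seq, 1 of 9 passed 2-fold at 2 h and 1 of 9 at 4 h, FOSL2 both times, and 0 of 10 at 8 h, against 15.1%, 12.9% and 9.94% of all genes tested. Between the deeper libraries, 0 of 9 passed from 2 h to 4 h and 0 of 9 from 4 h to 8 h, against 1.92% and 6.47%. The members' medians against no LPS were -0.09, 0.07 and 0.17, beside -0.02 for all genes each time. Barcodes with a count were also counted in place of counts, and scaled to the same total per library as CPM. IER2 then differed more than FOSL2 at each time, with log2 ratios of -0.99, -1.07 and -0.78 against 0.58, 0.52 and 0.69. FOSL2 passed 2-fold at no time in this way and IER2 passed at 4 h. These are not ratios of the share of barcodes, which for IER2 was 6.34% without LPS and 47.5% at 2 h. Each member tested at 2 h had a lower log2 ratio than in summed counts, with JUN, JUND and EGR1 at -0.42, -0.54 and -0.74. The no LPS library was far shallower, and the part of depth in these ratios was not tested. In summed counts, FOSL2 at 2 h was at 1.203 without the shared barcodes and 1.47 with at least 500 counts per barcode.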

How the data were processed

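Per the labels and the study's methods, the authors aligned scRNA-seq reads to ARS-UCD1.2 (bosTau9) with Cell Ranger and deposited UMI counts for each gene in each barcode. For scATAC-seq the authors deposited counts of the same shape, whose counting rule is not given in the sources used here. The stated limits on cells were applied here (under 200 UMIs read as a minimum) and left more cells in every library than the study counts. No doublet caller was run, and gated cells had UMIs of only 1 of the 4 gate markers. The UMIs of each library, or of each gated class in it, were added up and divided to a total of 1000000 (CPM). Libraries were grouped by the treatment in their titles, and every LPS time was compared with no LPS without a test, with 1 library per treatment.

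The members, lists and gates were chosen with earlier results of these data known. All members were named. From each other list, the highest and lowest gene past 2-fold at each time with at least 200 UMIs was named, and for each member the 3 genes of highest r. A gene that this rule names is not reported here. The list symbols IER5, SIK1, HSPA1B and IL8 were not matched. Intervals were exact Poisson (conditional binomial for ratios) and Clopper-Pearson, with scATAC-seq counts taken in pairs. The ratio step was tested on simulated data. The scRNA-seq tables gave the gene symbols and identifiers. Neither coordinates nor sequences were used. Alternatives covered cell limits, gates, scaling, cell weighting, pseudocount (0.1 and 10), fold (1.5 and 3) and thinning depth (500). Python 3.11.15, numpy 2.4.6, scipy 1.17.1, pandas 2.3.3 and matplotlib 3.10.9 were used, with edgeR 4.0.16 (TMM) and DESeq2 1.42.0 (size factors) in R 4.3.3 for scaling only.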

Additional observations from a re-analysis of the deposited data

Results flagged for a closer look

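FOS and IER2 had ratios of opposite sign in CD14-gated and CD3E-gated cells of the same libraries, with both counting intervals clear of no difference. The difference between the classes was not tested, since each treatment had 1 library. FOS at 8 h had a log2 ratio to no LPS of 0.50 in CD3E-gated cells and -0.88 in CD14-gated cells. In the latter the highest 10% of cells without LPS held 70.7% of the FOS UMIs. The thinned shares of these cells with FOS were 5.36% without LPS (3.78% to 7.34%) and 8.77% at 8 h (2.91% to 19.3%), with overlapping intervals. Unthinned, the share was lower at 8 h, 13.6% against 24.75% without LPS. IER2 at 2 h had 0.23 in CD3E-gated cells and -0.60 in CD14-gated cells, where the median of all genes was -0.56 and the ratio turned to 0.12 with every cell weighted equally.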

How the results depend on the processing

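No paired analysis was possible because each treatment had 1 library per assay, and for the same reason no replicate could be left out. Depth limits FOSB and EGR2 in every class and most members in NCR1-gated cells, and the shallow no LPS library limits scATAC-seq. Of the counts of members past 2-fold, 60 of 84 over all cells, 61 of 84 in gated cells and 20 of 25 in scATAC-seq stayed within 1.5 times the reported count across alternatives. The number of members with a UMI in at least 10% of all cells was 4 in each library after thinning to 1000 UMIs, 3 after thinning to 500 and 4 or 5 unthinned. Of the values of single members, 95 of 243, 110 of 629 and 31 of 230 moved beyond their counting interval. No value that was past 2-fold as reported changed sign. Some smaller values did, among them EGR1 in CD3E-gated cells at 4 h, as given above. Centring on the median and leaving out the barcodes that the no LPS and 2 h scATAC-seq libraries share were chosen after seeing the data. Where a count moved, the cause was not tested, beyond what each setting's construction shows.

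Over all cells kept at 2 h, the count of lower members (0 as reported) was 2 with no upper limit on genes, 2 with every deposited barcode, 1 with at least 1000 UMIs per cell and 2 at a 1.5-fold limit, and the count of higher members (1) was 2 at 1.5-fold and 0 at 3-fold. At 4 h, the count of lower members (1) was 2 with no upper limit, every barcode, at least 1000 UMIs, TMM scaling, DESeq2 size factors, a pseudocount of 0.1 CPM or centring on the median, 3 at 1.5-fold, and 0 with equal weights, the class shares of no LPS, a pseudocount of 10 CPM or 3-fold, and the count of higher members (0) was 1 with those class shares. At 8 h, 1 member in place of 0 was higher with equal weights, those class shares, a pseudocount of 0.1 CPM or 1.5-fold, and 1 was lower at 1.5-fold.

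In CD14-gated cells, 4 members passed at 2 h after centring, 5 at 4 h with equal weights, and at 8 h 1 with at least 1 UMI of each gate marker and 5 with the gates CSF1R, CD3D, CD79A and NCR1. In CD3E-gated cells, 0 passed at 2 h with at least 2 UMIs of each marker, no upper limit or a pseudocount of 10 CPM, 1 at 4 h with at least 2 UMIs, and 2 at 4 h and 2 at 8 h with equal weights. The count at 2 h was again 1 with the other gates and with equal weights, but FOSL2 fell short in both (0.64 and 0.91 on the log2 scale) and EGR1 (-1.57) or ATF3 (1.02) passed in its place. In MS4A1-gated cells, 1 passed at 2 h with no upper limit, equal weights or a pseudocount of 10 CPM, at 4 h 1 with at least 2 UMIs, 2 with the other gates and 1 with equal weights, and at 8 h 0 with the other gates, 2 with equal weights and 0 with a pseudocount of 10 CPM. In NCR1-gated cells, 3 passed at 2 h with at least 2 UMIs and 3 with the other gates, and 1 at 4 h and 1 at 8 h with at least 2 UMIs.

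In scATAC-seq, 0 passed at 2 h with a pseudocount of 10 CPM or with barcodes with a count counted and scaled as given above. At 4 h, 0 passed with that pseudocount. With barcodes counted and scaled, 1 passed at 4 h, where FOSL2 (0.52) fell short and IER2 (-1.07) passed. The count was 1 at 8 h with at least 500 counts per barcode or without the shared barcodes.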
